A study of Bubalus bubalis with 6 samples.

Results

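Platelet-derived growth factors (PDGFs), vascular endothelial growth factors (VEGFs) and their receptors were examined in buffalo muscle stem cells (MuSCs), together with ESM1, the secreted proteoglycan endocan. The 10 symbols PDGFRA, PDGFRB, KDR, PDGFA, PDGFB, PDGFC, PDGFD, VEGFA, VEGFC and ESM1 were looked up in the deposited gene table by exact symbol. They were chosen with earlier results of these data known. Of these, 9 were matched among 24616 listed genes, and all 9 passed the minimum of 10 counts over the 6 samples that 15576 genes passed. VEGFA was not matched by symbol and is not analysed here.

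The cells were primary MuSCs of the water buffalo, Bubalus bubalis, from the longissimus muscle of fetuses, with no genetic change named in the labels or the methods. The 3 proliferation (GM) samples were grown in high-glucose DMEM with fetal bovine serum. The 3 differentiation (DM) samples followed a change, near confluence, to DMEM with a lower percentage of horse serum, kept for some days. Serum type, serum amount, cell density, culture time and stage therefore changed together. PolyA RNA was sequenced from each sample. The labels do not say whether the 3 samples of a group were cultures of their own, so p-values measure only the spread between these samples, which may be technical.

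PDGFs are secreted dimers. PDGFRA, which binds the A, B and C chains, and PDGFRB, which binds the B and D chains, are receptor tyrosine kinases that drive growth and migration of mesenchymal cells, and in skeletal muscle PDGFRA marks fibro-adipogenic progenitors while PDGFRB marks pericytes. PDGFA and PDGFB are cleaved inside the cell, whereas PDGFC and PDGFD are released in a latent form that proteases such as tissue plasminogen activator and urokinase activate outside it. VEGFs act mainly on endothelium through FLT1, KDR and FLT4. VEGFC is the lymphatic growth factor, and ESM1 is known as a VEGF-responsive gene of endothelial tip cells.

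Each sample had between 35615864 and 40305237 counts on genes. DM replicate 3 stood apart: chi-square divided by its degrees of freedom was 40.5 to 41.4 for its counts against those of the other DM samples, against 11.7 for DM replicates 1 and 2 and 6.22 to 10.6 among GM samples. Values without it are therefore given beside those of each member. The labelled cell type was checked on its markers. Desmin, the muscle intermediate filament (DES), averaged 2274 CPM (counts scaled to library size) in GM and 2051 in DM, PAX7, the satellite cell factor, 18.5 and 9.78 CPM, and MYOG, the factor of terminal differentiation, 52.9 and 167 CPM. COL1A1, the type I collagen chain of fibroblasts, averaged 15288 CPM in GM and 44329 in DM. A fibroblast marker was thus abundant in cells labelled as stem cells. Other fibroblast markers ranged widely in GM, from 0.0417 CPM for PI16 and 0.520 for CD34 to 8299 for COL3A1. COL1A1 alone therefore does not show which cells were present. In bulk RNA, fewer cells of a type and less RNA per cell cannot be told apart.

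A gene was called when edgeR's quasi-likelihood test gave an absolute log2 fold change (DM over GM) above 1 and a Benjamini-Hochberg adjusted p under 0.05 over all tested genes. CPM values are scaled by TMM, edgeR's correction for library composition. Of the 9 members, 4 were called: PDGFRB rose in DM, and PDGFA, VEGFC and ESM1 fell. Of all tested genes, 25.3% were called in either direction, 15.0% as higher and 10.3% as lower in DM. CPM ranges of GM and DM were apart for 7 of the 9 members, all but PDGFC and KDR, which is near the 68.8% of all tested genes without overlap. The members' median log2 fold change was −0.74, with 4 values above 0 and 5 below, beside a median of 0.03 over all tested genes. That median is the value of KDR, a gene with few counts and an adjusted p of 0.127, so it does not show a shared shift.

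**Figure D1:**
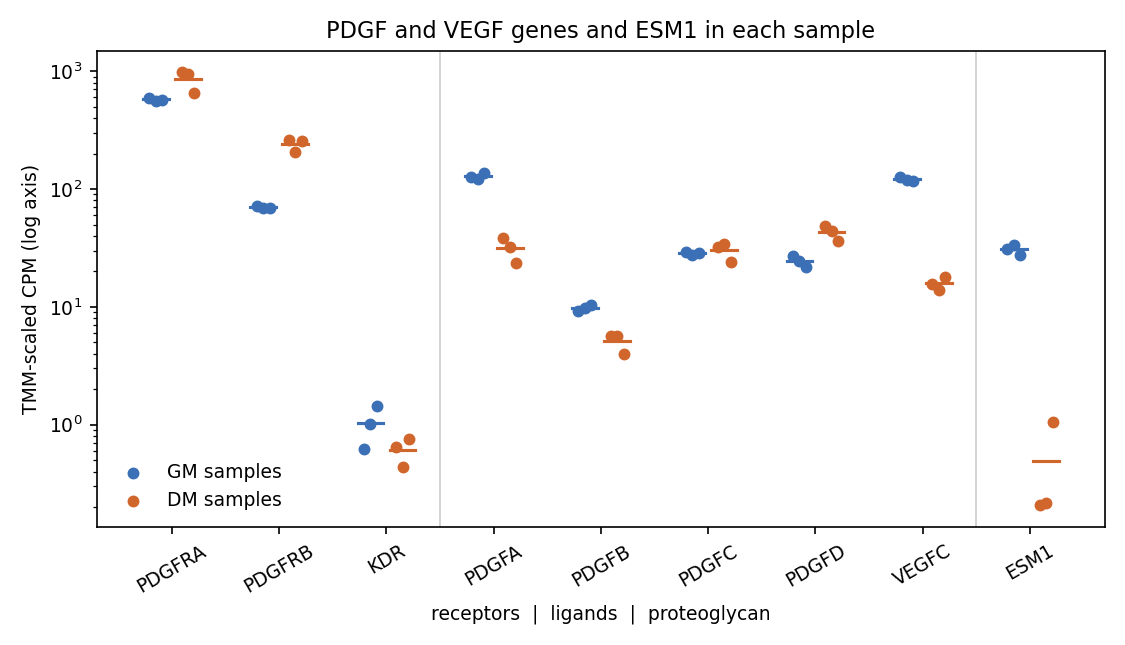
TMM-scaled CPM (y axis, log scale) of each of the 9 members (x axis, by role) in each of the 6 samples, with GM samples in blue, DM samples in orange and a short line at each group mean (n = 3 per group). All DM samples lie below all GM samples for PDGFA, PDGFB, VEGFC and ESM1 and above them for PDGFRA, PDGFRB and PDGFD, while PDGFC and KDR overlap.

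Chromosomes and positions are printed as deposited, beside cattle identifiers, and their build is not given in the sources used here. Both PDGF receptors had higher values in DM, PDGFRB by more. PDGFRB (ENSBTAG00000002804, chromosome 7, 63496230 to 63532702, minus strand) had 72.4, 68.7 and 68.5 CPM in GM replicates 1 to 3 and 259, 206 and 254 CPM in DM replicates 1 to 3. Every DM sample thus lay far above the GM samples, which were close to each other. The mean CPM went from 69.8 ± 2.19 to 239 ± 28.9 (SD, n = 3), a 3.43-fold rise with a log2 fold change of 1.78 (SE 0.089, 95% interval 1.58 to 1.97, adjusted p = 5.34e-08). Without DM replicate 3 the log2 fold change was 1.74. The microRNA gene bta-mir-1777b, which overlaps PDGFRB, had 0 counts.

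PDGFRA (ENSBTAG00000007173, chromosome 6, 71373513 to 71421283, plus strand) had 594, 563 and 569 CPM in GM and 977, 951 and 650 CPM in DM. The groups did not overlap, but DM replicate 3 lay much nearer to the GM samples than the other DM samples did. The log2 fold change was 0.58 (SE 0.13, 95% interval 0.29 to 0.86, adjusted p = 0.00252), a 1.49-fold difference under the fold limit, and it was 0.75 without DM replicate 3. The order of the DM samples was not shared by the receptors, since DM replicate 3 was lowest for PDGFRA and DM replicate 2 for PDGFRB.

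KDR (ENSBTAG00000000782, chromosome 6, 72232849 to 72277699, minus strand), the main signaling receptor for VEGF-A, lies 812 kb from PDGFRA. It had 26, 42 and 55 counts in GM and 22, 16 and 28 in DM, or 0.627, 1.01 and 1.45 CPM against 0.651, 0.437 and 0.757 CPM. It was near the floor of detection in every sample and the groups overlapped. Its log2 fold change of −0.74 (SE 0.39, adjusted p = 0.127) had a 95% interval from −1.61 to 0.14, so this depth does not tell a fall past the fold limit from no difference. Leaving out single samples moved it between −0.41 (without GM replicate 3) and −0.99 (without GM replicate 1), with −0.52 without DM replicate 2 and −0.91 without DM replicate 3.

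The PDGF ligands did not move together. PDGFA (ENSBTAG00000014541, chromosome 25, 42573239 to 42589974, plus strand), the A chain, had 126, 122 and 136 CPM in GM and 38.4, 32.5 and 23.6 CPM in DM. All 3 DM samples were far below the GM samples, with DM replicate 3 lowest. The mean went from 128 ± 7.11 to 31.5 ± 7.47 CPM (SD, n = 3), 4.06-fold lower in DM, with a log2 fold change of −2.02 (SE 0.14, 95% interval −2.34 to −1.70, adjusted p = 6.16e-07) and −1.84 without DM replicate 3.

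PDGFB (ENSBTAG00000021697, chromosome 5, 111180170 to 111200490, minus strand), the B chain, which binds both receptors, had 9.31, 9.71 and 10.4 CPM in GM and 5.68, 5.63 and 3.97 CPM in DM. The DM samples were all lower, again with DM replicate 3 lowest. The log2 fold change of −0.94 (SE 0.16, 95% interval −1.29 to −0.59, adjusted p = 0.000391) fell just short of the fold limit. It was past the limit without DM replicate 1 (−1.02), without DM replicate 2 (−1.01) and with scaling by library size alone (−1.04), and stood at −0.78 without DM replicate 3.

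PDGFC (ENSBTAG00000043959, chromosome 17, 43348702 to 43457620, plus strand), a latent ligand of PDGFRA, had 29.2, 27.6 and 28.7 CPM in GM and 32.3, 34.4 and 23.9 CPM in DM. DM replicate 3 was below and the other DM samples above every GM sample. The log2 fold change was 0.08 (SE 0.12, 95% interval −0.18 to 0.35, adjusted p = 0.575). Leaving out DM replicate 3 gave 0.23 and leaving out DM replicate 2 gave −0.0067, and scaling by library size alone also turned its sign, at −0.015.

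PDGFD (ENSBTAG00000034827, chromosome 15, 4501435 to 4788300, plus strand), the latent ligand of PDGFRB, had 26.8, 24.4 and 21.9 CPM in GM and 48.3, 44.1 and 35.9 CPM in DM. The groups did not overlap, and DM replicate 3 was once more the lowest of its group. The log2 fold change was 0.81 (SE 0.11, 95% interval 0.56 to 1.07, adjusted p = 0.00011), 1.76-fold higher in DM and under the fold limit, and 0.93 without DM replicate 3. PDGFD overlaps DDI1 on the opposite strand, and reads of the pair cannot be told apart if counting ignored strand, which the sources used here do not state.

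VEGFC (ENSBTAG00000014737, chromosome 27, 6999636 to 7084866, minus strand) was among the strongly expressed members in GM and fell in DM. It had 126, 120 and 116 CPM in GM and 15.6, 13.9 and 17.9 CPM in DM. Both groups were tight, with DM replicate 3 highest of the DM samples, unlike for the PDGF ligands. The mean went from 121 ± 4.69 to 15.8 ± 1.97 CPM (SD, n = 3), 7.62-fold lower, with a log2 fold change of −2.93 (SE 0.094, 95% interval −3.14 to −2.72, adjusted p = 4.39e-09) and −3.02 without DM replicate 3.

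ESM1 (ENSBTAG00000004221, chromosome 20, 24131984 to 24140817, plus strand) had the largest difference of the 9 members. It had 1275, 1405 and 1046 counts in GM and 7, 8 and 39 counts in DM, or 30.7, 33.8 and 27.6 CPM against 0.207, 0.219 and 1.05 CPM. ESM1 was near 0 in DM replicates 1 and 2, and DM replicate 3 held several times more, though still far below any GM sample. The log2 fold change was −5.93 (SE 0.35, 95% interval −6.70 to −5.15, adjusted p = 1.65e-07), 60.9-fold lower in DM, which placed ESM1 118th of 15576 tested genes by absolute log2 fold change. Its size rests on DM replicate 3, since it was −7.14 without that sample.

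Levels of the members were compared with each other in RPKM, the authors' counts scaled by gene length and library total. In GM, PDGFA led with 91.5 ± 5.12 RPKM (SD, n = 3), followed by PDGFRA with 88.6 ± 2.75 and VEGFC with 81.7 ± 3.32. The ranges of PDGFA and PDGFRA overlapped, so their order is not set by these samples. It also rests on the deposited gene lengths, 1447 bases for PDGFA and 6722 for PDGFRA. In CPM, which is not scaled by length, the GM means were 575 for PDGFRA, 128 for PDGFA and 121 for VEGFC. PDGFC had 31.4 ± 0.946 RPKM, PDGFRB 16.2 ± 0.543, ESM1 15.4 ± 1.53, PDGFD 12.3 ± 1.24, PDGFB 4.17 ± 0.223 and KDR 0.177 ± 0.0710 RPKM. Of these neighbours, PDGFRB and ESM1 overlapped.

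In DM, the receptors stood first, PDGFRA with 123 ± 25.8 RPKM (SD, n = 3) and PDGFRB with 51.9 ± 5.57 RPKM. PDGFC had 31.1 ± 5.84 RPKM, PDGFA 21.0 ± 4.78 and PDGFD 20.1 ± 2.82. The range of PDGFA overlapped that of PDGFC above it and of PDGFD below it. Within each DM sample, however, PDGFC was above PDGFA, with 32.7, 36.0 and 24.7 against 25.2, 22.1 and 15.8 RPKM. The order of PDGFA and PDGFD differed between DM samples. VEGFC had 10.01 ± 1.21 RPKM, PDGFB 2.02 ± 0.383, ESM1 0.232 ± 0.228 and KDR 0.0990 ± 0.0256, the last pair overlapping. ESM1 had thus moved from the level of PDGFRB in GM to that of KDR in DM.

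The makeup of each class of transcripts differed between the groups on the same RPKM scale. PDGFA made up 65.6 ± 1.54% (SD, n = 3) of the summed RPKM of the 4 PDGF ligands in GM and 28.2 ± 2.09% in DM, while PDGFC went from 22.6 ± 0.577% to 41.9 ± 2.27% and PDGFD from 8.81 ± 1.04% to 27.2 ± 1.42%. PDGFC therefore held the largest share in DM with nearly the same RPKM as in GM, while the summed RPKM of the 4 ligands went from 139 ± 5.16 to 74.3 ± 13.3. This rank rests on the deposited gene lengths, 938 bases for PDGFC, 1447 for PDGFA and 2055 for PDGFD. In CPM, which is not scaled by length, the DM means were 30.2, 31.5 and 42.8 in the same order. PDGFB held 2.99% in GM and 2.72% in DM.

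For the receptors, PDGFRB made up 15.5 ± 0.0955% (SD, n = 3) of the summed RPKM of PDGFRA and PDGFRB in GM, and 28.6%, 24.7% and 37.1% in DM replicates 1 to 3. The highest share was that of DM replicate 3, in which PDGFRA was lowest. The summed RPKM of the receptors went from 105 ± 3.28 to 175 ± 23.4 RPKM. Receptor and ligand sums thus differed in opposite directions, with no overlap between the groups for either.

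Among the VEGF ligands VEGFB, VEGFC, VEGFD and PGF, taken without VEGFA, VEGFC made up 72.3 ± 2.01% (SD, n = 3) of the summed RPKM in GM and 15.2 ± 0.832% in DM, and VEGFB 27.4 ± 2.07% and 84.6 ± 1.04%. The summed RPKM of FLT1, KDR and FLT4 was 2.03 ± 0.0654 in GM and 0.392 ± 0.106 in DM, so the VEGF receptors were rare transcripts in both groups. For 15 of the 17 shares and sums compared in these 4 classes, the exact two-sided permutation test gave p = 0.1, the smallest that 3 samples against 3 allow, or 0.113 after Benjamini-Hochberg adjustment over the 17. This design cannot bring such a test under the 0.05 threshold.

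**Figure D2:**
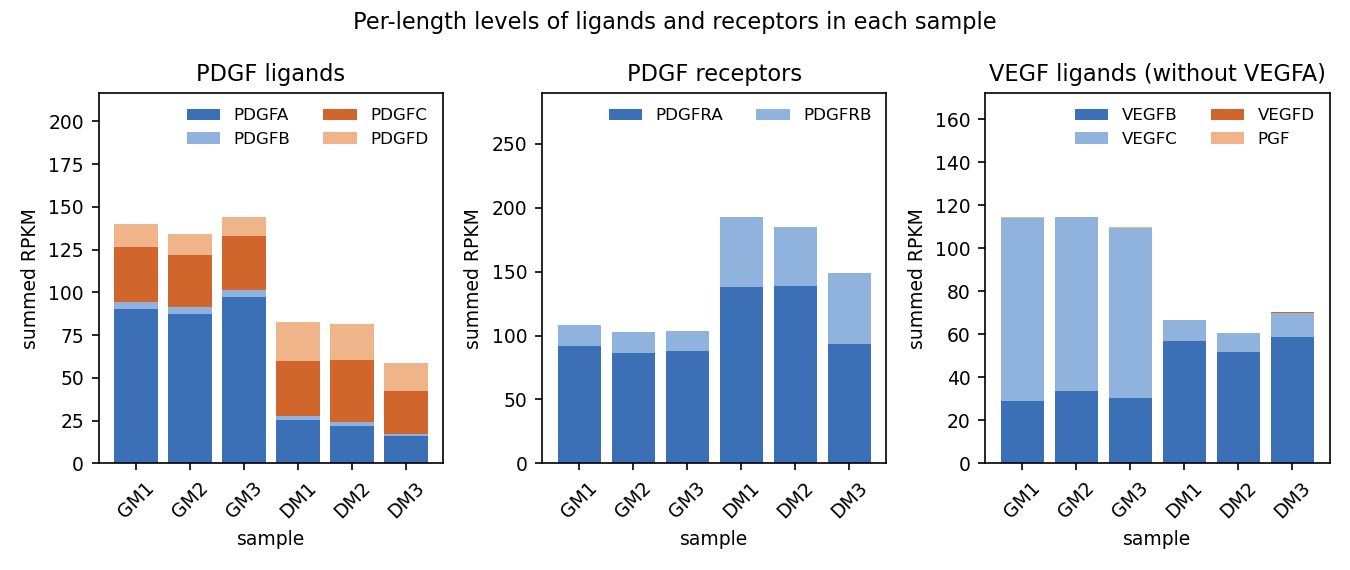
Summed RPKM (y axis, linear from 0) of the 4 PDGF ligands, the PDGF receptors and the VEGF ligands without VEGFA, 1 panel each, as 1 bar per sample with the RPKM of each gene stacked in its own colour. The mean PDGF ligand sum goes from 139 to 74.3 RPKM, mostly through PDGFA, the receptor sum from 105 to 175 RPKM, and VEGFB takes the larger part of the VEGF ligands in DM.

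The other 8 ligands and receptors of the same families were followed as a list. Of these, 7 were tested and 3 called, beside 25.3% of all tested genes. FLT1, the VEGF receptor and decoy that binds VEGF-A, VEGF-B and PGF, had 320, 292 and 268 counts in GM and 27, 48 and 58 in DM, a mean of 7.27 against 1.23 CPM. It fell with a log2 fold change of −2.56 (SE 0.23, adjusted p = 3.41e-06). FLT1 was thus called lower while the difference of KDR did not pass the test, and the difference between the pair was not tested. FLT4, the receptor of VEGFC, had 2, 1 and 1 counts in GM and 0, 0 and 1 in DM and was under the count minimum, so almost no transcript of the main VEGFC receptor was seen in either group.

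PDGFRL, the PDGF receptor-like protein, rose from 10.9 ± 0.105 to 26.7 ± 1.95 CPM (SD, n = 3, log2 fold change 1.29, adjusted p = 4.64e-07), in the direction of PDGFRB. VEGFB had 30.7 CPM in GM and 59.1 in DM, a log2 fold change of 0.95 (adjusted p = 3.57e-06) just under the limit. It was past the limit without GM replicate 2 (1.01), without DM replicate 2 (1.02) and under the study's own RPKM filter (1.003). VEGFB was higher where VEGFC was lower.

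The neuropilins, co-receptors shared by VEGFs and semaphorins, had opposite signs: NRP1 had 89.2 CPM in GM and 49.1 in DM (log2 fold change −0.86, adjusted p = 9.26e-06), and NRP2, which binds VEGFC, 88.7 and 144 CPM (0.70, adjusted p = 1.69e-05). Neither passed the fold limit. PGF, placental growth factor, had 18, 8 and 22 counts in GM and 1, 3 and 7 in DM and was called with a log2 fold change of −1.94 (adjusted p = 0.0300). That call rests on few reads, as it was lost with DESeq2 (adjusted p = 0.0507) and when GM replicate 1 (−1.88), GM replicate 3 (−1.59), DM replicate 1 (−1.53) or DM replicate 2 (−1.80) was left out, and without DM replicate 3 the value was −2.74. VEGFD had 3, 3 and 0 counts in GM and 4, 3 and 17 in DM, with an adjusted p of 0.0789, and most of its DM counts came from DM replicate 3.

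**Figure D3:**
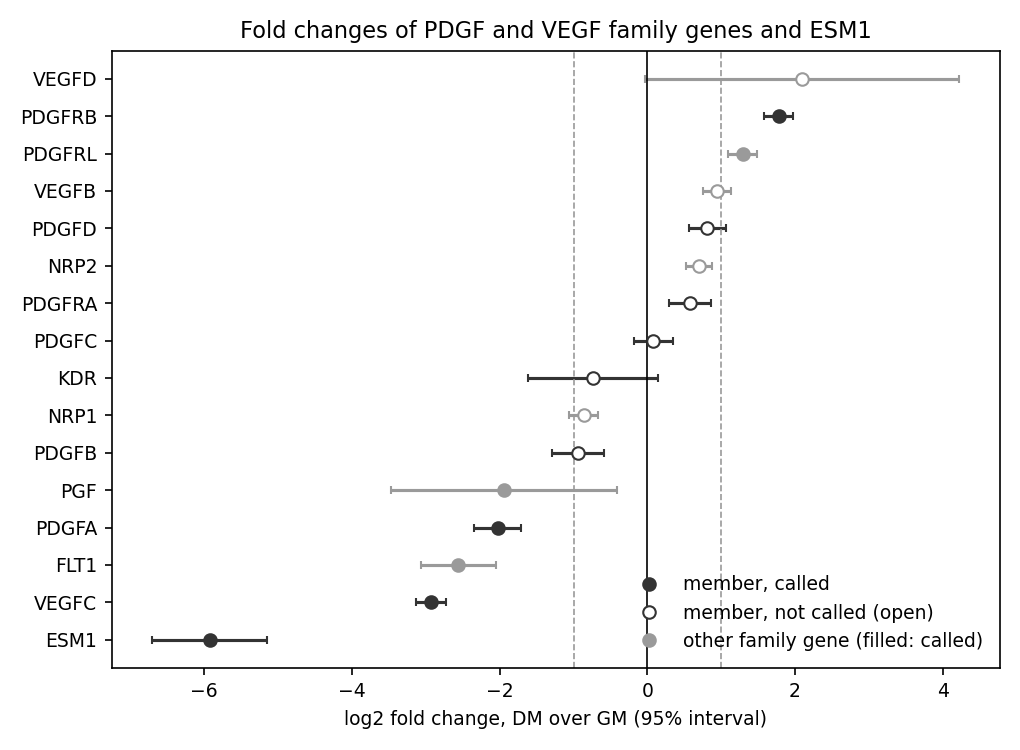
Log2 fold change (DM over GM, x axis) of the 9 members and the 7 tested other genes of the families, with 95% intervals from the edgeR fit and the fold limits of 1 in either direction as dashed lines, with members in black, other family genes in grey, and filled points for called genes. PDGFRB and PDGFRL are called on the right, and PDGFA, VEGFC, FLT1, PGF and ESM1 on the left, with ESM1 farthest at −5.93.

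Proteins that activate or bind these ligands were followed as a list, with 15 listed, 14 tested and 11 called. Of the called, 6 were higher and 5 lower in DM, beside 15.0% higher and 10.3% lower of all tested genes. The list's median log2 fold change was 0.26. THBS1, thrombospondin 1, a matrix protein that binds VEGF, fell from 4725 to 764 CPM (log2 fold change −2.63, adjusted p = 2.02e-09). A2M, the protease inhibitor that also binds PDGF, rose from 2.75 to 14.2 CPM (2.37, adjusted p = 1.75e-06). ADAMTS1, a matrix protease that binds VEGF, fell from 251 to 51.7 CPM (−2.28, adjusted p = 1.85e-08).

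The proteases of the latent PDGFs differed in sign. PLAU, urokinase, an activator of PDGFD, had 306, 294 and 298 CPM in GM and 77.5, 66.4 and 79.4 CPM in DM and fell with a log2 fold change of −2.01 (SE 0.076, adjusted p = 1.05e-08). PLAT, tissue plasminogen activator, which cleaves PDGFC, had 54.8 CPM in GM and 98.8 in DM (0.85, adjusted p = 1.2e-06), under the fold limit. PDGFD, with more transcript in DM, was thus accompanied by less of its activator PLAU.

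For VEGFC, the maturation genes also split. ADAMTS3, the protease that cleaves VEGFC, fell from 4.52 to 1.25 CPM (−1.85, adjusted p = 5.75e-05), while CCBE1, its cofactor, rose from 7.70 to 16.3 CPM (1.08, adjusted p = 0.0017). The call of CCBE1 was lost without DM replicate 1 (0.88), without DM replicate 2 (0.998) and with library size alone (0.98). FURIN, a proprotein convertase that cleaves PDGFA, PDGFB and VEGFC, fell with a log2 fold change of −1.04, lost under the RPKM filter (−0.98) and without DM replicate 2 (−0.97), and PCSK5, a related convertase, rose by 1.48.

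TIMP3, a metalloprotease inhibitor that blocks VEGF binding to KDR, rose from 84.7 to 296 CPM (1.81, adjusted p = 1.6e-08). SPARC, a matrix protein that binds PDGF, rose by 1.03 and LRP1, a co-receptor of PDGFRB, by 1.04, both close to the limit and under it with library size alone (0.93 and 0.94), without DM replicate 1 (0.99 and 0.98), and in SPARC also without GM replicate 2 (0.99). For LRP1 the value without GM replicate 3 was 0.999. CTGF and HSPG2 were not called, and ST14 was under the count minimum.

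Downstream of the receptors, 45 tested genes for adaptors, kinases and second messengers had a median log2 fold change of 0.01 and 6 calls, 3 in each direction. VAV3, a guanine nucleotide exchange factor, rose from 5.15 to 17.6 CPM (1.77, adjusted p = 9.6e-07). FYN, a Src family kinase, rose from 29.3 to 73.4 CPM (1.32, adjusted p = 5.89e-07). PLCG2, a phospholipase C, fell from 10.4 to 4.14 CPM (−1.33, adjusted p = 8.78e-06). The share called was 13.3%, beside 25.3% of all tested genes.

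Of 12 tested genes that limit receptor signaling, 1 was called, beside 25.3% of all tested genes. SPRY4, a feedback inhibitor of the Ras and ERK pathway that is itself induced by growth factor signaling, had 35.0, 35.9 and 35.7 CPM in GM and 1.69, 1.28 and 3.24 CPM in DM. It fell 17.1-fold (log2 fold change −4.09, SE 0.24, adjusted p = 1.43e-07). Like ESM1, SPRY4 had its highest DM value in DM replicate 3.

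Genes known as VEGF-responsive or as tip cell genes, the class ESM1 is placed in, went both ways. Of 11 tested, 3 rose, 3 fell and 5 were not called, beside 15.0% higher and 10.3% lower of all tested genes, and the median log2 fold change was −0.02. DUSP5, an ERK phosphatase, fell from 24.1 to 3.18 CPM (−2.92, adjusted p = 1.61e-07). UNC5B, a netrin receptor, rose from 18.8 to 97.2 CPM (2.37, adjusted p = 1.55e-08), and NID2, a basement membrane protein, from 225 to 986 CPM (2.13, adjusted p = 2.27e-08).

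Among 18 tested genes of the hypoxia response, of which VEGFA is a known target, 5 were called lower and 2 higher. Of all tested genes, 10.3% were called lower and 15.0% higher. The list's median log2 fold change was −0.36. EPAS1, the hypoxia-inducible factor HIF-2α, rose from 33.2 to 415 CPM (3.64, adjusted p = 1.64e-07). SLC2A1, the glucose transporter GLUT1, fell from 185 to 36.3 CPM (−2.35, adjusted p = 3.56e-07), and PFKFB3, a driver of glycolysis, from 42.8 to 9.44 CPM (−2.18, adjusted p = 1.34e-07). PFKFB4, of the same family as PFKFB3, was the other gene called higher, from 1.83 to 4.94 CPM (1.44, adjusted p = 0.000116). It was named after its values were seen. Genes of glucose use on this list thus went both ways.

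**Figure D4:**
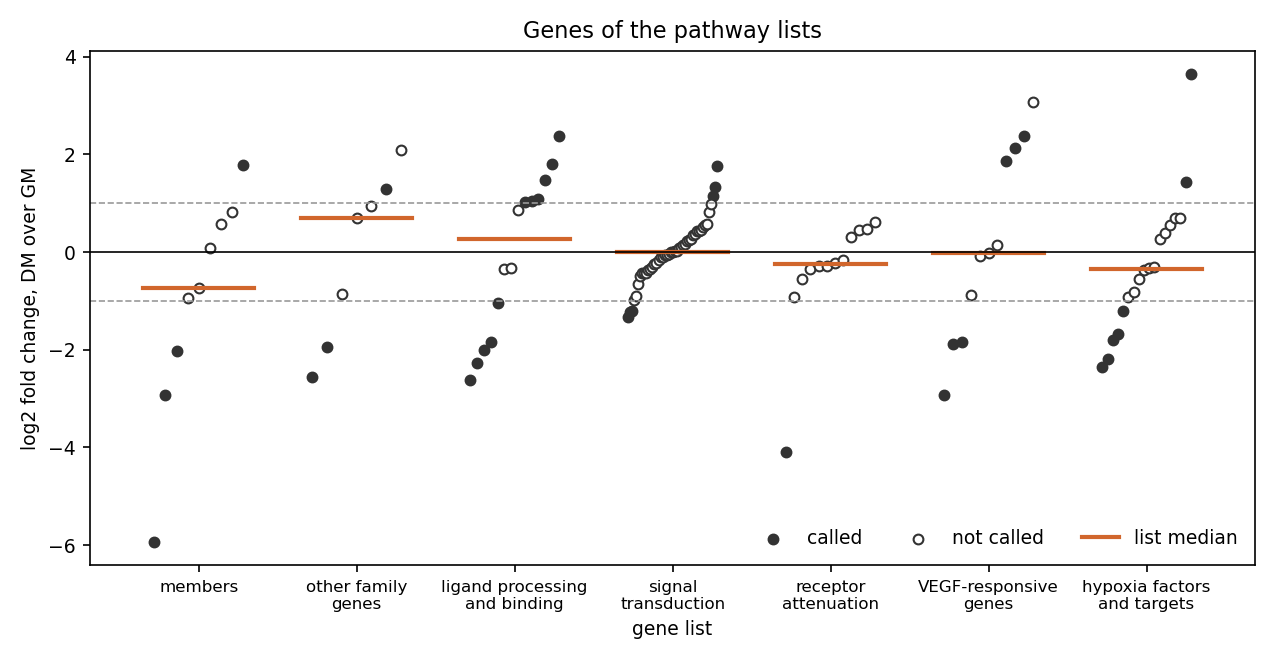
Log2 fold change (DM over GM, y axis) of each tested gene in the members and in the 6 lists of related genes, 1 point per gene, with filled points for called genes and a line for each list's median and dashed lines at the fold limits. The transduction genes sit close to 0, with 6 of 45 called, while 11 of 14 ligand-binding and processing genes lie past the limits, in both directions. Of all tested genes, 25.3% were called.

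Markers of other cell types were set beside these values. For endothelial cells, the usual source of KDR, FLT1 and ESM1, the defining markers were low: PECAM1 averaged 0.0321 CPM in GM and 0.0917 in DM, CDH5 0.534 and 0.110 CPM, VWF 1.18 and 0.443 CPM, and TEK 1.47 and 4.20 CPM. The 16 listed endothelial markers summed to 15.2 to 17.9 CPM in GM and 21.3 to 29.8 in DM, none of them at 0 in all samples. A few genes carried this sum, chief among them ERG, an ETS factor, with 8.64 CPM in GM and 9.79 in DM and a high value of 14.8 CPM in DM replicate 3. Of 14 tested markers, 7 were called, beside 25.3% of all tested genes. TEK, CLEC14A and PROX1 were higher and CDH5, TIE1, VWF and MMRN2 lower. The median log2 fold change of the 14 was −0.20. The call of CDH5 was lost without GM replicate 1 (−1.89), GM replicate 2 (−2.04) or DM replicate 1 (−1.82), and its counts of 32, 28 and 6 in GM and 1, 8 and 3 in DM overlapped. ERG, CLEC14A, PROX1, TIE1 and MMRN2 were named after their values were seen.

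Mural cells, the vessel-wrapping pericytes and smooth muscle cells that PDGFRB marks, had a summed marker level of 2735 to 2898 CPM in GM and 2611 to 3097 in DM. Most of this sum came from the smooth muscle genes ACTA2, with 1191 CPM in GM and 1351 in DM, and TAGLN, with 1371 and 1115 CPM, which other contractile cells also express, so the sums say little about mural cells. Of 12 tested markers 2 were called, beside 25.3% of all tested genes. They were the potassium channel subunits KCNJ8, from 0.277 to 13.8 CPM, and ABCC9, from 2.01 to 48.6 CPM. These 4 genes were named after their values were seen. RGS5, a pericyte marker, averaged 0.0753 CPM in GM and 0.00987 in DM. CSPG4, the proteoglycan NG2, had 63.9 and 86.5 CPM with an adjusted p of 0.24, and its sign turned without DM replicate 3, at −0.18. NOTCH3, a receptor of smooth muscle, had 58.1 and 65.1 CPM and was not called.

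Of 12 tested fibroblast markers, 8 were called higher in DM, as PDGFRB was, and none lower. Of all tested genes, 15.0% were called higher and 10.3% lower. The list's median log2 fold change was 1.54, and its sums were 24358 to 24581 CPM in GM and 76524 to 96162 in DM. Most of each sum came from the collagens COL1A1 and COL3A1, the latter with 8299 CPM in GM and 39253 in DM. The sum was lowest in DM replicate 3 and PDGFRB in DM replicate 2, but the order of DM samples differed between markers. In DM replicates 1 to 3, COL3A1 had 44727, 41715 and 31317 CPM, and THY1 had 623, 568 and 589 CPM. TCF7L2, OSR1, PDPN and CD34 were not called. These 4, COL3A1, PI16 and THY1 were named after their values were seen. DCN, decorin, had 447 and 2311 CPM. Myogenic markers also moved, with 8 of 13 higher and 1 lower and sums of 2909 to 3469 CPM in GM and 6082 to 8275 in DM. MYOD1, the myoblast factor, had 32.5 and 60.5 CPM, a log2 fold change of 0.90 that passed the limit without DM replicate 3, at 1.14. Blood cell markers summed to 11.0 to 12.6 CPM in GM and 11.8 to 16.7 in DM, and PTPRC, the leukocyte marker CD45, had at most 2 counts in any sample. None of the 5 marker lists had a gene at 0 in all samples, and the part of any cell type in the members' differences was not tested.

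Genes with the most similar profiles were found among 8980 tested genes of at least 10 CPM, by the Euclidean distance of log2 CPM centred over the 6 samples. Nearest to ESM1 were IL11, a cytokine of the IL-6 family (distance 1.83, log2 fold change −5.84), P3H2, a collagen prolyl hydroxylase (2.25, −5.01), and VAT1L (2.39, −4.25). IL11 had 59.9, 75.2 and 61.1 CPM in GM and 1.07, 1.26 and 1.08 CPM in DM, so it did not share the higher DM replicate 3 of ESM1. Nearest to PDGFRB were MXRA5, a matrix protein (distance 0.151), PLIN2, a lipid droplet protein (0.162), and LOXL2, a collagen cross-linking oxidase (0.175). With only 6 samples in 2 groups, the distance mostly reflects the size of the difference between GM and DM.

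The mRNA table held 10 transcripts of the 9 members. For 8 members the single transcript had the same counts as the gene, so it adds no second measurement. PDGFB had 2 transcripts, with log2 fold changes of −1.01 (adjusted p = 0.000559, called) and −0.97 (adjusted p = 0.00026, under the fold limit), on either side of the limit that the gene's −0.94 missed. The counts of its transcripts added up to more than those of the gene, so their reads are shared. In all, 5 of the 10 transcripts were called, beside 25.6% of all tested mRNA transcripts.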

How the data were processed

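The authors aligned reads of the 6 polyA libraries with HISAT2 and deposited raw counts per gene and per transcript, without normalization. The submitters' processing notes name another aligner, Bowtie 0.12.2, and mouse builds (mm8, mm9). The study's methods name a buffalo reference genome and annotation, whereas the tables carry cattle Ensembl identifiers with no build, so coordinates are given as deposited and are tied to no genome. The RPKM values were computed by the authors from these counts, the deposited gene length and the library total. The authors' own comparison tables (fold changes, p-values and q-values) and the ncRNA table were not used.

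Features with at least 10 counts in total were tested in R 4.3.3 with edgeR 4.0.16 (TMM, glmQLFit, glmQLFTest, group only), adjusted over all tested features. Called features had an adjusted p under 0.05 and a log2 fold change beyond 1 in either direction. The sources used here do not state whether counting used strand. Each SE was derived from the fit, as the absolute log2 fold change divided by the square root of the quasi-likelihood F statistic. The 95% intervals multiply this SE by a t quantile and are therefore symmetric, also for genes with few counts. The prior count for log2 CPM was 2. Exact permutation tests used scipy 1.17.1. Scripts were tested on simulated data. Total counts on genes were 36657735 to 40305237 in GM and 35615864 to 38177614 in DM, and KDR, with under 60 counts per sample, was measured least precisely.

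Members and lists were chosen with earlier results of these data known. Named from each list are the 3 called genes with the largest absolute change and a mean of at least 1 CPM, and, from the marker lists, fixed defining genes. The family and processing lists were then described in full after their values were seen. CCN2 was found under its older symbol CTGF and MYMK under TMEM8C. Alternatives were library size alone, DESeq2's size factors in edgeR, other filters on low counts, DESeq2 1.42.0, no minimum fold change, a replicate block and each replicate left out.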

Additional observations from a re-analysis of the deposited data

How the results depend on the processing

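Of 115 member fold changes under an alternative, 110 kept their direction and their side of the limits, 3 (all PDGFB) crossed the fold limit and 2 (PDGFC) changed sign, at −0.015 with library size alone and −0.0067 without DM replicate 2. Leaving out single replicates moved PDGFC between −0.0067 and 0.23 and CSPG4 between −0.18, without DM replicate 3, and 0.70. The cause was not tested. Of 140 counts of calls under an alternative, 128 stayed within 1.5 times. With library size alone, 2 genes of the attenuation list were called, the median log2 fold change of mRNAs was −0.12 in place of 0.03, and 52.8% of called genes were higher in place of 59.2%. The study's RPKM filter, which tests fewer features and leaves out KDR and ESM1, gave 2197 genes, 2264 mRNAs and 3 member transcripts. Without a minimum fold change, which calls more by construction, 9813 genes, 10571 mRNAs, 7 members, 8 member transcripts, 6 family, 31 transduction, 11 attenuation and 17 hypoxia genes were called. Leaving out each replicate gave 3647 to 3995 genes, 3904 to 4274 mRNAs, 4 to 5 members, 4 to 6 member transcripts, 2 to 4 family, 8 to 11 processing, 6 to 8 transduction, 1 attenuation, 6 to 7 VEGF-responsive and 7 hypoxia genes. DESeq2 called 3673 genes and 4 members.

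Pairing by replicate number was not seen: deviations of same-numbered samples from their group means correlated at −0.0076, −0.022 and −0.010. Such correlations cannot show that the samples were unpaired, and the labels do not settle it. A replicate block gave 3837 genes, 4 members, 4094 mRNAs and 5 member transcripts. Genes with few reads (KDR, PGF, VEGFD, FLT4) are limited by depth.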
